A study of Mus musculus with 18 samples.

Results

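The genes described here are 33 type I interferon-stimulated genes, chosen as a fixed list of symbols and found as rows of a count table of 45777 genes. All 33 were in the table, and all 33 passed the low-count filter that left 18848 genes for testing. RNA came from the colon. All animals were males of the C57BL/6J strain, aged 8 weeks and kept germ-free, so none had a microbiota. DKO mice carried knockouts of both Lao1 and Il4i1, LAO1KO mice carried the Lao1 knockout, and WT mice carried neither. How the knockout alleles were made is not given in the sources used here. DSS colon came from mice that for 24 hours drank 2.5% dextran sulfate sodium, a polymer toxic to the gut lining, and water colon came from mice given sterile water. Each of the 6 combinations of genotype and drinking condition held 3 libraries, labelled as biological replicates A, B and C, and values in threes below follow that order.

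Type I interferons signal through the receptor chains Ifnar1 and Ifnar2 and the kinases Jak1 and Tyk2 to Stat2, which acts with Irf9 in the complex ISGF3. The complex binds the interferon-stimulated response element (ISRE) in promoters and induces antiviral effectors, nucleic acid sensors and its own subunits. Type III interferons use another receptor, prominent on gut epithelium, and reach the same complex. The enzymes encoded by Lao1 and Il4i1 oxidise L-amino acids and release hydrogen peroxide.

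For most of these genes the highest level was found in a single colon from a mouse given water. WT water replicate B had the highest level of all 18 libraries for 21 of the 33 genes, with Usp18 at 11.01 times and Isg15 at 7.69 times the median of the other 17. Against water groups that include this library, Ifi35 rose under DSS in WT colon and no other member passed the test for DSS in any genotype or on average. Mx2 was lower in DKO than in WT colon under water, on 10 to 13 counts in the DKO libraries. It was the only member to pass in a genotype comparison in edgeR with all 18 libraries. The call was lost without WT water replicate B or without any 1 of the DKO water libraries, and other fits called other members. Under DSS all 33 genes had negative log2 fold changes in DKO against WT colon, with a median of -0.66, and none passed the adjusted threshold. LAO1KO colon, set against the same WT DSS libraries, had 32 of 33 negative, with a median of -0.50, and none passed there either.

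The libraries held 26003174 to 36553193 counts. Levels are given as CPM, a gene's counts relative to the library total after TMM scaling over the tested genes. On the first principal component, WT water replicate B at -84.2 and LAO1KO water replicate A at -65.5 stood apart from the other 16 libraries, which lay between -28.2 and 46.2. Mitochondrial mRNAs took 6.89 to 44.9% of counts, with the most in WT DSS replicate C. Epithelial genes marked the tissue as colon, with Car1 at 5035 to 11315 CPM and Cdx2 at 206 to 366 CPM. Lao1 had 0 to 4 counts in WT libraries, against which its 0 to 10 counts in knockout libraries check nothing, while Il4i1 and its copy Il4i1b summed to 0 to 12 counts in DKO and 12 to 66 in the other libraries.

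Promoter sequences are shown because the response element is what interferon-stimulated genes are known to carry, and the list was not chosen by sequence. RefSeq windows on GRCm38.p6, running from 250 bases before to 50 bases after a transcript start, were at hand for 23 of the 33 genes. The element was searched as GAAA followed by NN and again GAAA on either strand, which reads TTTC, NN and TTTC on the other, where N is any base. It was found in 12 of these 23 genes (52.2%), against 3.89% of the 13584 tested genes with a window and 3.44% of all 32851 windows of this length. Overlapping matches count separately, so Isg15 had 3, while Oas1a, Bst2, Ifit3 and Ifit1 had 2 and Ifih1, Ddx58, Oas3, Trim30a, Stat2, Rsad2 and Eif2ak2 had 1 in a window. No match lay in the windows of Ifi44, Oasl2, Oasl1, Herc6, Irf7, Xaf1, Ifi35, Cmpk2, Irf9, Dtx3l and Ifit2, which says only that these letters are absent there. A match is a description of the sequence and does not show binding.

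The 5 windows below run 5′ to 3′ along the gene, with the matching letters in capitals. Ifih1 (chr2:62646206-62646505, minus strand), Stat2 (chr10:128270248-128270547, plus strand) and Eif2ak2 (chr17:78882523-78882822, minus strand) are those with a match among the 6 members of highest mean CPM, a scale that does not allow for gene length. Isg15 (chr4:156200769-156201068, minus strand) and Ifit1 (chr19:34640639-34640938, plus strand) were added after their values were seen, as genes with several matches and large differences between libraries.
Ifih1: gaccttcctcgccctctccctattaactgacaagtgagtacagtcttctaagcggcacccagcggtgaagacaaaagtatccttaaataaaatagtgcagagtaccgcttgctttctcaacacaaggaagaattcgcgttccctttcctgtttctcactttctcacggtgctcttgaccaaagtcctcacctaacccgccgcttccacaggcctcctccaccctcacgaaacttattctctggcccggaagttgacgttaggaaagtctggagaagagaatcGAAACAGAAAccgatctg
Stat2: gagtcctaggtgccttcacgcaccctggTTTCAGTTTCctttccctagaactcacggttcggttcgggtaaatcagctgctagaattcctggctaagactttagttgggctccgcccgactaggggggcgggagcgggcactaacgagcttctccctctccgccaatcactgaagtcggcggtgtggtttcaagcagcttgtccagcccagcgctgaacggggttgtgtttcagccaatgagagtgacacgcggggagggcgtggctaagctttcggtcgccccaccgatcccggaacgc
Eif2ak2: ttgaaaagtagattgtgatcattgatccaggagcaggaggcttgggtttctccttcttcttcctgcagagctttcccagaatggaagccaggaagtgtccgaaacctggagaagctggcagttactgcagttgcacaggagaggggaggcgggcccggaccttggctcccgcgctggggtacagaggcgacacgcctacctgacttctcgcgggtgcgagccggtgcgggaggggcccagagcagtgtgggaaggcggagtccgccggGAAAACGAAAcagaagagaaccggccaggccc
Isg15: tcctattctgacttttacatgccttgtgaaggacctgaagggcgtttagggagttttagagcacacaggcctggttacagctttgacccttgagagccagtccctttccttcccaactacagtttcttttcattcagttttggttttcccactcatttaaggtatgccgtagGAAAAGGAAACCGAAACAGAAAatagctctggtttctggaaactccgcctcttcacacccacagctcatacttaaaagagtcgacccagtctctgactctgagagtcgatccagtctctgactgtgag
Ifit1: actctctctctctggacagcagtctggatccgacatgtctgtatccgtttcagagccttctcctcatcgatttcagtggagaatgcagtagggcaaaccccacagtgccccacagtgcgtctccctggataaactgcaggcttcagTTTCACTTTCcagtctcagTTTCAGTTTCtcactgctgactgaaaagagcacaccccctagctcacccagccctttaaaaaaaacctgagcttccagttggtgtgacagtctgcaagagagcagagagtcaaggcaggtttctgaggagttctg
The Isg15 matches ran together in a single stretch, first base 78 before the start, and the first Ifit1 match began 104 bases before its start. In Ifih1 and Eif2ak2 the match lay after the start, within the transcribed part. Among genes with a window, the level in WT water replicate B was 0.978 to 7.69 times the median of the other libraries for the 12 with a match (median 2.60), and 0.873 to 7.66 times for the 11 without (median 1.88). These ranges overlap almost wholly.

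Per kilobase of exon, a scale that allows for gene length, Irf7 was the most abundant member with a median of 43.9 CPM per kb over the 18 libraries. The length joins all annotated exons of a gene and can exceed that of the transcripts present, so the order is approximate. Oas1a (20.9), Ifi35 (20.3), Ifi27l2a (17.7), Bst2 (13.05) and Isg15 (10.8) followed on the same scale. Isg15 ran from 3.14 to 74.5 CPM per kb across libraries, so its place among its neighbours is not separated from theirs by more than the spread. Usp18 (0.638), Herc6 (0.578), Mx2 (0.303) and Ifi44 (0.297) had the lowest medians in CPM per kb.

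The 33 genes summed to 1538 CPM in WT water replicate B, against 643 and 665 CPM in WT water replicates A and C and 590.4 to 1189 CPM in all of the other 17 libraries. The next highest sum, 1189 CPM, was that of WT DSS replicate B, which also had the highest level outside WT water replicate B for 22 of the 33 genes. In WT water replicate B 17 genes exceeded 2 times, and 6 exceeded 4 times, the median of the other 17 libraries. The ISG15 pathway (median 7.69 times over 3 genes) and the OAS family (median 4.21 times over 5 genes) stood highest, and in this library each of these 8 genes had its highest level. Parp9, Parp14 and Dtx3l were at 1.22 to 1.32 times. Ddx58 (0.978), Ifi35 (0.971), Cmpk2 (0.873) and Ifi27l2a (0.749) were at or below the median of the other libraries.

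**Figure D1:**
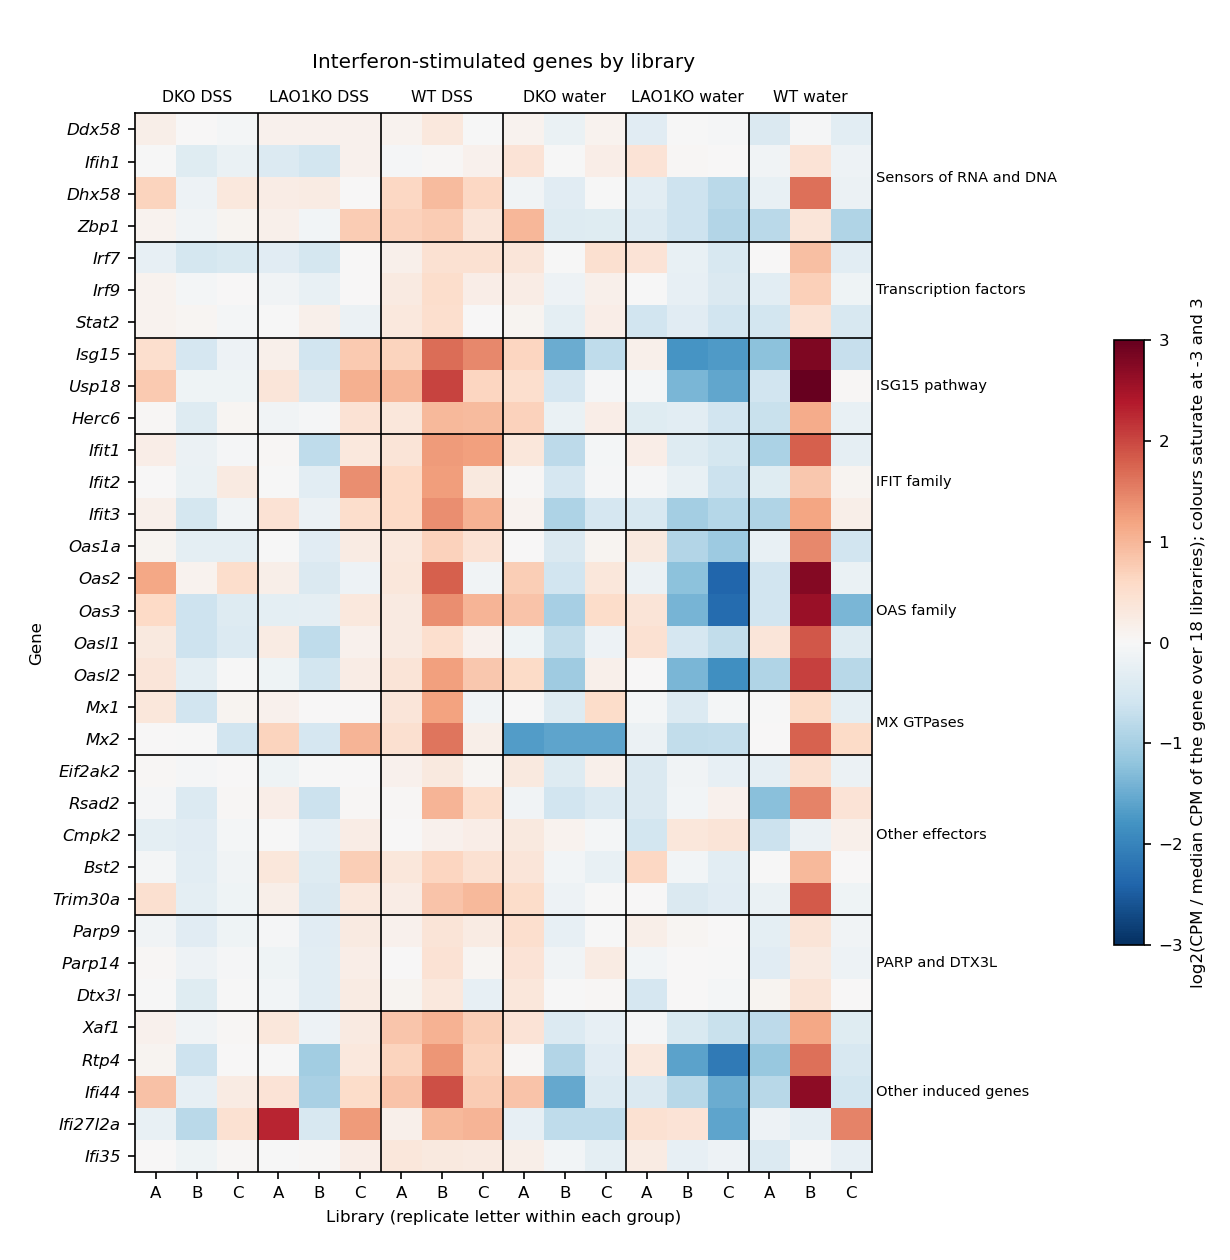
Each cell is the log2 ratio of a gene's CPM to its own median over the 18 libraries, with genes grouped by role (rows) and libraries by group (columns, replicates A to C). WT water replicate B is the darkest red column, WT DSS replicate B the next, and the DKO water cells of Mx2 are blue in all 3 replicates.

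**Figure D2:**
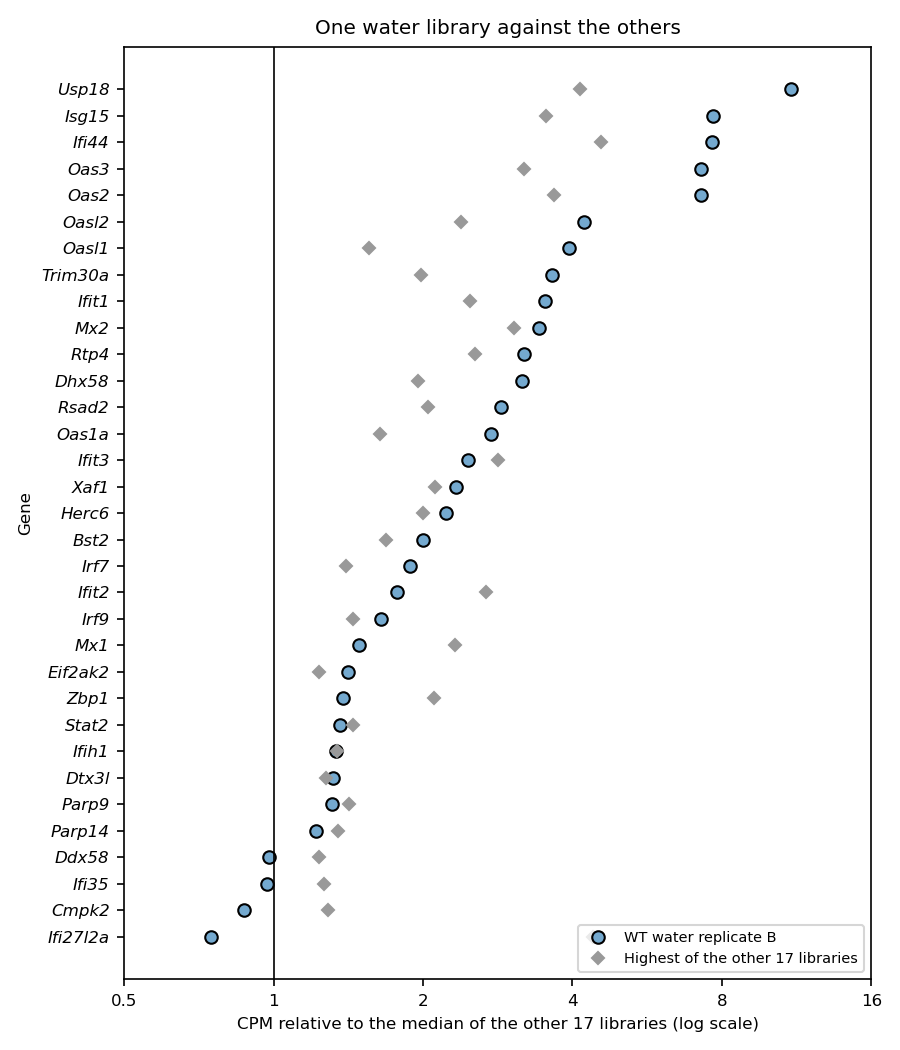
Blue circles give the CPM of each gene in WT water replicate B divided by its median over the other 17 libraries, and grey diamonds give the highest of those 17 on the same log axis. Usp18 is at 11.01 and Isg15 at 7.69, while Ddx58, Ifi35, Cmpk2 and Ifi27l2a lie below 1.

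Other gene lists moved with this library, and their part in its interferon-gene levels was not tested. Smooth muscle markers summed to 5849 CPM in WT water replicate B, against 1500 to 5191 CPM in the other 17 libraries, and fibroblast markers to 547 CPM, against 170.2 to 437 CPM. T cell markers were lowest there (1.82 CPM, against 3.78 to 11.4 CPM), as were the markers of NK cells (0.669 CPM, against 0.881 to 6.41 CPM) and red cells (41.4 CPM, against 43.6 to 591 CPM). Neutrophil markers (2.81 CPM, against 0.266 to 4.15 CPM) and plasma cell markers (260 CPM, against 127 to 266 CPM) each ranked 2nd of 18. The epithelial marker Slc26a3 was at 734 CPM there, against 76.7 to 331 CPM, while all epithelial markers together ranked 5th. The 6 genes listed for plasmacytoid dendritic cells, known as strong interferon producers, summed to 77.3 CPM there, against 77.7 to 110.6 CPM. Of these, Siglech stood at 0.159 to 0.883 CPM and Ccr9 at 0.132 to 1.02 CPM over the 18 libraries. The sum is therefore mostly that of other genes and does not measure these cells. Macrophage markers ranked 12th of 18. In this bulk tissue, fewer cells of a type and less RNA per cell cannot be told apart. A further 55 interferon-induced genes outside the list summed to 2118 CPM there, against 1300.1 to 1877 CPM, and 17 genes of MHC class I presentation and the immunoproteasome summed to 2641 CPM, against 3081 to 4977 CPM, their lowest.

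Sensors of foreign nucleic acid came first by role. Ifih1 (chr2:62595618-62646255), which encodes the RNA sensor MDA5, stood at 47.7, 37.1 and 41.8 CPM in DKO DSS colon, 36.3, 32.8 and 52.6 CPM in LAO1KO DSS colon and 46.9, 49.1 and 52.3 CPM in WT DSS colon. Under water it stood at 63.7, 47.5 and 55.02 CPM in DKO, 63.9, 49.6 and 48.4 CPM in LAO1KO and 44.4, 63.7 and 43.1 CPM in WT. DSS and water values overlapped within each genotype, and WT water replicate B was matched by LAO1KO water replicate A and DKO water replicate A. Dhx58 (chr11:100694884-100704271), which encodes the regulator LGP2 and was picked for full values after they were seen, stood at 9.94, 5.62 and 7.72 CPM in DKO DSS colon, 7.25, 7.41 and 6.25 CPM in LAO1KO DSS colon and 9.48, 12.02 and 9.52 CPM in WT DSS colon. In water colon the values were 5.75, 4.92 and 6.16 CPM in DKO, 4.97, 4.01 and 3.55 CPM in LAO1KO and 5.29, 19.5 and 5.46 CPM in WT. The DSS libraries lay above all water libraries of LAO1KO colon, and in WT colon they lay above water replicates A and C and below B. Ddx58, which encodes RIG-I, ranged over 17.8 to 29.7 CPM with a median of 23.98. Zbp1, a sensor of Z-form nucleic acid that can trigger cell death, ranged over 6.31 to 23.2 CPM with a median of 11.7, with its highest level in DKO water replicate A.

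Among the transcription factors, Irf7 (chr7:141263183-141266499), the factor that amplifies interferon production, stood at 139.6, 115 and 121 CPM in DKO DSS colon, 131, 114 and 166 CPM in LAO1KO DSS colon and 185, 227 and 227 CPM in WT DSS colon. The water libraries held 215, 166 and 232 CPM in DKO, 222, 142 and 118 CPM in LAO1KO and 166, 313 and 134 CPM in WT. Its DKO DSS values lay below all DKO water values and below all WT DSS values. Stat2 (chr10:128270498-128292853), the ISGF3 subunit specific to type I and III interferon, stood at 47.6, 45.6 and 42.3 CPM in DKO DSS colon, 43.6, 48.6 and 38.8 CPM in LAO1KO DSS colon and 54.8, 62.8 and 44.4 CPM in WT DSS colon. With water alone the levels were 46.9, 35.8 and 50.3 CPM in DKO, 29.3, 34.8 and 29.4 CPM in LAO1KO and 30.02, 59.4 and 31.5 CPM in WT. DSS and water values were separate in LAO1KO colon and overlapped in the other genotypes. Irf9, the DNA-binding subunit, ranged over 21.1 to 46.4 CPM with a median of 28.3. Irf7 overlaps Phrf1 on the opposite strand and Irf9 overlaps Rnf31 on the same strand, and how overlapping genes were counted is not given in the sources used here.

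The ISG15 pathway attaches and removes a ubiquitin-like tag. Isg15 (chr4:156199424-156200818), a ubiquitin-like protein joined to other proteins during the response, stood at 11.4, 5.74 and 7.33 CPM in DKO DSS colon, 8.92, 5.43 and 13.9 CPM in LAO1KO DSS colon and 12.9, 25.9 and 22.1 CPM in WT DSS colon. Under water it stood at 12.7, 2.88 and 4.74 CPM in DKO, 8.97, 2.38 and 2.51 CPM in LAO1KO and 3.45, 56.4 and 5.003 CPM in WT. WT water replicate B was more than 10 times its group's other replicates, and DKO DSS values lay below all WT DSS values. Usp18 (chr6:121245906-121270917), the protease that removes Isg15 and damps receptor signalling, stood at 3.05, 1.63 and 1.63 CPM in DKO DSS colon, 2.29, 1.32 and 3.72 CPM in LAO1KO DSS colon and 3.57, 7.23 and 2.76 CPM in WT DSS colon. In water colon the values were 2.53, 1.24 and 1.75 CPM in DKO, 1.70, 0.686 and 0.603 CPM in LAO1KO and 1.20, 19.3 and 1.81 CPM in WT. Its 604 counts in WT water replicate B compare with 43 and 68 counts in replicates A and C. Isg15 and Usp18, like Ifit1, Oas2 and Xaf1 below, were picked for full values after these were seen. Herc6, the ligase that attaches Isg15 in mice, ranged over 3.40 to 11.7 CPM with a median of 5.37.

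The IFIT proteins bind foreign RNA and are encoded side by side on chromosome 19. Ifit1 (chr19:34640889-34650009) stood at 25.2, 19.4 and 21.4 CPM in DKO DSS colon, 22.4, 12.99 and 27.1 CPM in LAO1KO DSS colon and 28.4, 53.3 and 51.3 CPM in WT DSS colon. The water libraries held 27.8, 12.8 and 20.9 CPM in DKO, 25.1, 16.7 and 15.2 CPM in LAO1KO and 11.3, 75.5 and 18.1 CPM in WT. All WT DSS values lay above those of DKO and LAO1KO DSS colon, and WT water held both the highest and the lowest of the 18 values. Ifit3 ranged over 4.46 to 23.9 CPM with a median of 9.11, highest in WT DSS replicate B, and Ifit2 over 2.82 to 11.7 CPM with a median of 4.42, highest in LAO1KO DSS replicate C. Ifit3 has the near-identical copy Ifit3b, so its counts are uncertain.

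The OAS genes on chromosome 5 include those of synthetases whose product activates the RNA-degrading enzyme RNase L. Oas2 (chr5:120730333-120749886) stood at 8.14, 3.90 and 5.26 CPM in DKO DSS colon, 4.11, 2.72 and 3.27 CPM in LAO1KO DSS colon and 4.61, 12.5 and 3.41 CPM in WT DSS colon. With water alone the levels were 6.13, 2.46 and 4.59 CPM in DKO, 3.24, 1.56 and 0.698 CPM in LAO1KO and 2.45, 24.7 and 3.19 CPM in WT. WT water replicate B was the highest and LAO1KO water replicate C the lowest, 35.4-fold apart, on 776 and 22 counts. Oas3 ranged over 1.46 to 43.2 CPM with a median of 7.33, and Oas1a, whose close paralogs make its counts uncertain, over 18.6 to 107 CPM with a median of 39.5. Oasl1, which holds back translation of Irf7 in mice, ranged over 14.4 to 88.2 CPM with a median of 24.5, and Oasl2 over 7.96 to 119 CPM with a median of 28.4. All 5 were highest in WT water replicate B.

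The Mx genes encode dynamin-like antiviral GTPases, and C57BL/6 mice carry defective alleles of them. Mx2 (chr16:97536081-97560901) stood at 1.10, 1.09 and 0.739 CPM in DKO DSS colon, 1.73, 0.771 and 2.21 CPM in LAO1KO DSS colon and 1.54, 3.32 and 1.23 CPM in WT DSS colon. Under water it stood at 0.343, 0.368 and 0.364 CPM in DKO, 0.965, 0.660 and 0.666 CPM in LAO1KO and 1.11, 3.73 and 1.62 CPM in WT. The 3 DKO water values were the lowest of the 18 and close together, on 10, 13 and 10 counts. Mx1 ranged over 2.78 to 9.55 CPM with a median of 4.11, highest in WT DSS replicate B.

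Among other effectors, Eif2ak2 (chr17:78850504-78882572), the kinase PKR that halts translation on sensing double-stranded RNA, stood at 43.4, 41.1 and 42.5 CPM in DKO DSS colon, 38.9, 42.1 and 42.6 CPM in LAO1KO DSS colon and 46.6, 51.9 and 43.8 CPM in WT DSS colon. In water colon the values were 51.8, 32.3 and 47.3 CPM in DKO, 31.3, 39.3 and 35.6 CPM in LAO1KO and 35.1, 59.3 and 37.7 CPM in WT. WT DSS values lay above those of both knockouts under DSS, by small margins. Rsad2 encodes viperin, which makes a chain-terminating nucleotide, and ranged over 2.92 to 19.7 CPM with a median of 6.98. Its neighbour Cmpk2, a mitochondrial nucleotide kinase, ranged over 12.5 to 25.3 CPM with a median of 19.4, highest in LAO1KO water replicate C. Bst2, the tethering protein that holds budding virus at the cell surface, ranged over 9.07 to 23.3 CPM with a median of 11.8, and Trim30a over 3.08 to 15.1 CPM with a median of 4.19.

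Parp14 (chr16:35831892-35871518), an ADP-ribosyltransferase, stood at 62.8, 55.4 and 59.6 CPM in DKO DSS colon, 56.5, 49.1 and 70.9 CPM in LAO1KO DSS colon and 62.5, 82.6 and 64.4 CPM in WT DSS colon. The water libraries held 82.5, 57.7 and 73.02 CPM in DKO, 58.04, 61.8 and 61.3 CPM in LAO1KO and 48.4, 74.7 and 55.8 CPM in WT. Groups overlapped in all pairs compared. Parp9 (chr16:35938470-35972621), which acts with the ubiquitin ligase Dtx3l, stood at 40.1, 34.2 and 39.6 CPM in DKO DSS colon, 42.1, 34.5 and 52.6 CPM in LAO1KO DSS colon and 47.3, 56.8 and 51.3 CPM in WT DSS colon. With water alone the levels were 61.2, 36.6 and 43.1 CPM in DKO, 48.99, 44.8 and 43.7 CPM in LAO1KO and 35.6, 56.4 and 40.1 CPM in WT. DKO DSS values lay below all WT DSS values, and DSS and water overlapped in all genotypes. Dtx3l ranged over 23.05 to 43.1 CPM with a median of 32.9, and it overlaps Parp9 on the opposite strand.

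Xaf1 (chr11:72301461-72313733), a promoter of apoptosis, stood at 13.5, 11.5 and 12.8 CPM in DKO DSS colon, 15.7, 11.2 and 14.96 CPM in LAO1KO DSS colon and 22.04, 25.4 and 20.7 CPM in WT DSS colon. Under water it stood at 16.4, 9.28 and 10.3 CPM in DKO, 11.98, 9.03 and 7.74 CPM in LAO1KO and 7.16, 27.9 and 9.61 CPM in WT. The WT DSS values exceeded every other library except WT water replicate B. Ifi35 (chr11:101448412-101458701), a partner of Nmi, stood at 35.1, 31.9 and 35.7 CPM in DKO DSS colon, 35.1, 36.3 and 40.2 CPM in LAO1KO DSS colon and 44.5, 43.3 and 42.4 CPM in WT DSS colon. In water colon the values were 39.9, 33.03 and 28.7 CPM in DKO, 41.95, 29.5 and 31.7 CPM in LAO1KO and 26.3, 34.1 and 29.5 CPM in WT. WT DSS values were the 3 highest of the 18 and lay above WT water replicate B too. Ifi44 ranged over 0.622 to 11.6 CPM with a median of 1.82 and Rtp4 over 1.84 to 25.2 CPM with a median of 7.95, both highest in WT water replicate B. Ifi27l2a followed another order, over 2.73 to 39.5 CPM with a median of 8.18, highest in LAO1KO DSS replicate A.

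**Figure D3:**
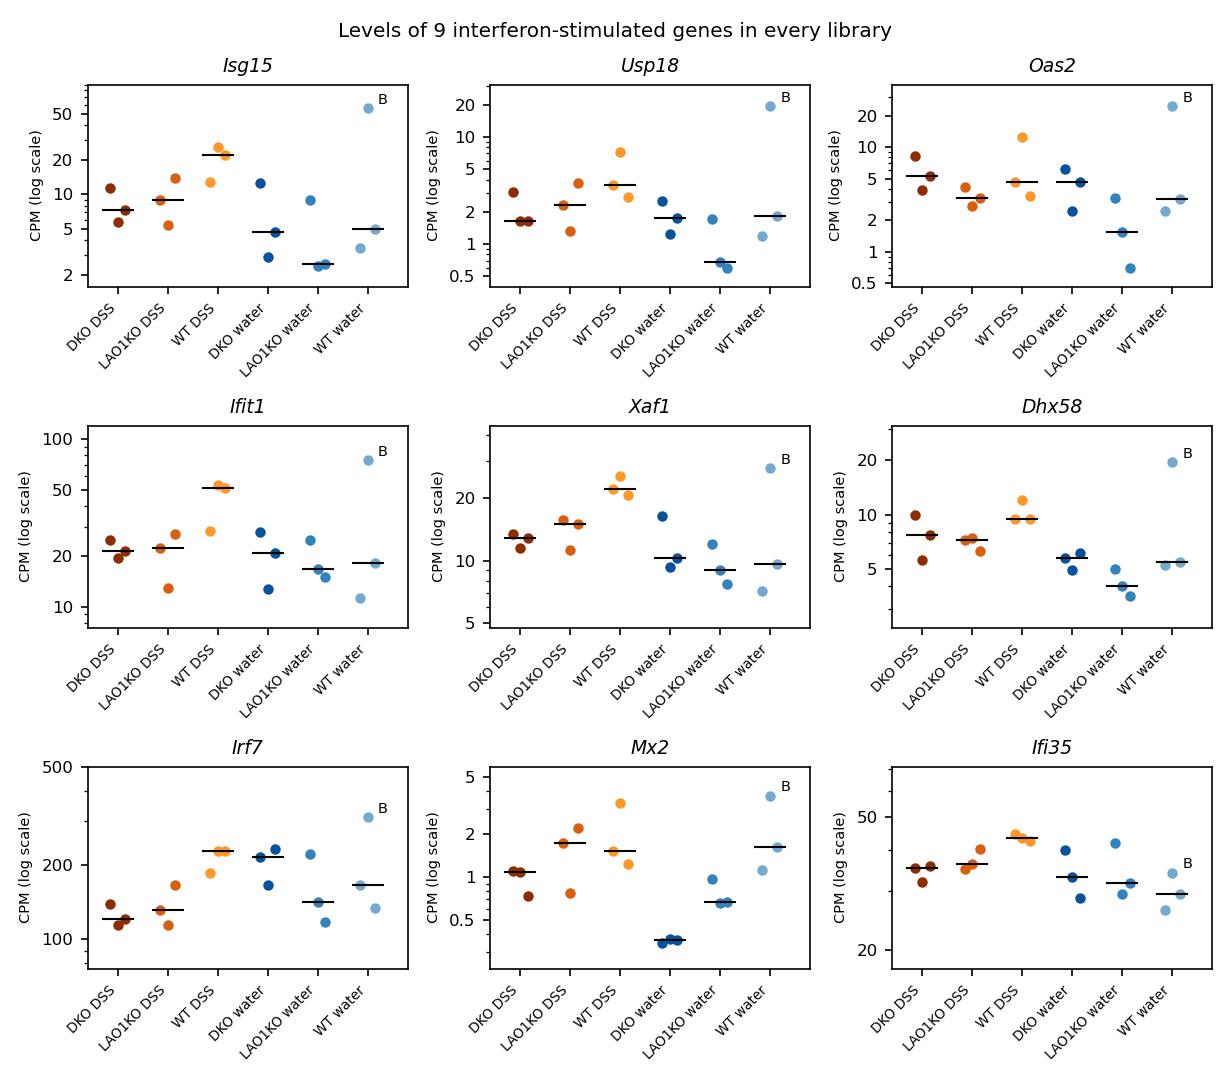
Points are CPM in single libraries on a log axis, offset left to right as replicates A, B and C within each group, and black lines are group medians. WT water replicate B, marked B, is the highest point for all of these genes except Ifi35, where the WT DSS values between 42.4 and 44.5 CPM are highest.

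Across the 18 libraries most members varied together. The Pearson correlation of a gene's log2 CPM with the median of the other members was 0.969 for Ifi44, 0.961 for Isg15 and 0.953 for Oasl2, the highest, and 0.317 for Ifi27l2a and 0.0476 for Cmpk2, the lowest. With WT water replicate B left out the same correlations were 0.955, 0.942, 0.932, 0.479 and 0.153 in that order. These values describe points that share groups and scaling, and they mean that counts of members below are not counts of separate observations. Rsad2, which lies next to Cmpk2 on chromosome 12, had a correlation of 0.740.

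Averaged over the 3 genotypes, DSS left no member past an adjusted p of 0.05 in edgeR's quasi-likelihood test, where 15.9% of all tested genes passed. At an unadjusted p under 0.05 there were 8 members. DESeq2 called 4 (all higher), where it called 22.9% of genes, and voom with library weights called 20, where it called 33% of genes. The members' median log2 fold change was 0.22, with 25 of 33 positive, against a median of 0.031 over all tested genes. Leaving out 1 library gave medians from 0.074 with 21 positive (without WT DSS replicate B) to 0.44 with 29 positive (without WT water replicate B). The smallest p-values were those of Mx2 (0.80 ± 0.28 SE, adjusted p = 0.057), Ddx58 (0.23 ± 0.08 SE, adjusted p = 0.0597) and Ifit3 (0.66 ± 0.23 SE, adjusted p = 0.0634). Removing WT water replicate B, the water library with the highest levels of most members, raises the DSS differences by construction. In that fit 10 members passed, all higher, where 12.4% of genes passed. They were Dhx58 (0.72, adjusted p = 0.00225), Xaf1 (0.68), Stat2 (0.44), Ifit3 (0.88), Zbp1 (0.74), Mx2 (1.02), Usp18 (1.02), Ifi44 (1.13), Ddx58 (0.26) and Isg15 (1.19) in log2 fold change. Leaving out another library gave 3 members without DKO water replicate A, 2 without WT DSS replicate C and 1 without LAO1KO water replicate A, LAO1KO DSS replicate B or LAO1KO DSS replicate C, the last being Ifih1, which was lower.

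In WT colon Ifi35 rose under DSS, at 43.4 ± 1.04 CPM in DSS and 29.97 ± 3.91 CPM in water (SD, n = 3 each), a log2 fold change of 0.53 ± 0.14 SE with an edgeR adjusted p of 0.0234. It was the only member of 33 past the threshold, where 12.9% of all tested genes passed, 6.29% higher and 6.59% lower. At an unadjusted p under 0.05 there were 3 members. DESeq2 called 2, where it called 19.5% of genes, and voom with library weights 11, where it called 18.3%. Next by p-value came Ddx58 (0.39 ± 0.14 SE, adjusted p = 0.0701) and Zbp1 (0.95 ± 0.37 SE, adjusted p = 0.0984). The members' median was 0.11, with 21 of 33 positive, against 0.023 over all genes. It was -0.057 with 13 positive without WT water replicate A and -0.021 with 16 positive without WT DSS replicate B. DSS and water values did not overlap, with DSS higher, for 2 members, Ifi35 and Ddx58, where 18% of all tested genes had such values. Ifi35 had adjusted p-values of 0.0503 to 0.0804 without WT water replicate A or any of the 3 WT DSS libraries, so no member passed without any of these 4. Mitochondrial mRNAs took 26.1 to 44.9% of counts in WT DSS libraries and 6.89 to 9.08% in WT water libraries, and with these mRNAs removed Ifi35 was again the only member called (0.53 ± 0.14 SE, adjusted p = 0.0191).

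The labels give no pairing of DSS and water animals. In WT colon the deviations of same-letter libraries from their group means correlated at 0.234 to 0.329. Different letters were not compared, so pairing is not shown. With the letter as a block in the 6 WT libraries alone, a fit added after seeing the data, 2 members passed, where 13.9% of genes did. They were Zbp1 (1.03 ± 0.23 SE, adjusted p = 0.0273) and Ifi35 (0.52 ± 0.12 SE, adjusted p = 0.0303). Leaving WT water replicate B out, the WT comparison called 8 members, all higher, where 4.03% of genes passed. Xaf1 was at 1.44 ± 0.25 SE, adjusted p = 0.00951, and Stat2 (0.81), Herc6 (1.20), Zbp1 (1.47), Ifi35 (0.64), Ifit1 (1.59), Dhx58 (0.94) and Ifit3 (1.31) were the others. The median was then 0.81, with 32 of 33 positive. Removing the water library with the highest levels raises these differences by construction, and it leaves 2 water libraries for the comparison.

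In LAO1KO colon no member passed under DSS, where 0.196% of all genes did, while DESeq2 called 0 of the 32 members for which it gave an adjusted p (4.91% of genes) and voom with library weights 18 (26.7% of genes). There were 6 members with an unadjusted p under 0.05. The median log2 fold change was 0.41, with 28 of 33 positive, and it was 0.25 without LAO1KO water replicate C and 0.25, with 23 positive, without LAO1KO DSS replicate C. The smallest p-values were those of Ifit3 (1.07 ± 0.41 SE, adjusted p = 0.228), Zbp1 (0.95 ± 0.37 SE, adjusted p = 0.239) and Stat2 (0.48 ± 0.21 SE, adjusted p = 0.285). All 3 DSS values exceeded all 3 water values for 7 members (21.2%), namely Ifit3, Mx1, Stat2, Zbp1, Herc6, Dhx58 and Ddx58, against 9.3% of all tested genes. Isg15 was at 9.42 ± 4.25 CPM in DSS and 4.62 ± 3.77 CPM in water (SD, n = 3 each), and its values overlapped.

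In DKO colon no member passed in edgeR's test, where 0.0159% of all genes did, with 3 members at an unadjusted p under 0.05, 0 of the 23 that DESeq2 gave an adjusted p (1.67% of genes) and 1 with voom (2.35% of genes). The median was 0.015, with 18 of 33 positive, and its sign depended on single libraries. It was -0.14 with 9 positive without DKO water replicate B, -0.11 with 10 positive without DKO DSS replicate A and 0.15 with 22 positive without DKO water replicate A. Mx2 had the smallest p (1.44 ± 0.51 SE, adjusted p = 0.382), and its DSS values lay above all water values, as was so for 8.39% of all tested genes. Irf7 (-0.71 ± 0.27 SE, adjusted p = 0.423) and Ifih1 (-0.39 ± 0.18 SE, adjusted p = 0.518) followed. Irf7 and Cmpk2 lay lower in all DSS than in all water libraries, as was so for 10.4% of all tested genes. Same-letter correlations in DKO colon were 0.130 to 0.364, which does not show pairing either. With the letter as a block in the 6 DKO libraries, also added after seeing the data, 2 members (6.06%) passed, both lower. That share is near the 5.65% of all genes that passed. They were Irf7 (-0.68 ± 0.11 SE, adjusted p = 0.00298) and Ifih1 (-0.38 ± 0.10 SE, adjusted p = 0.0453).

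**Figure D4:**
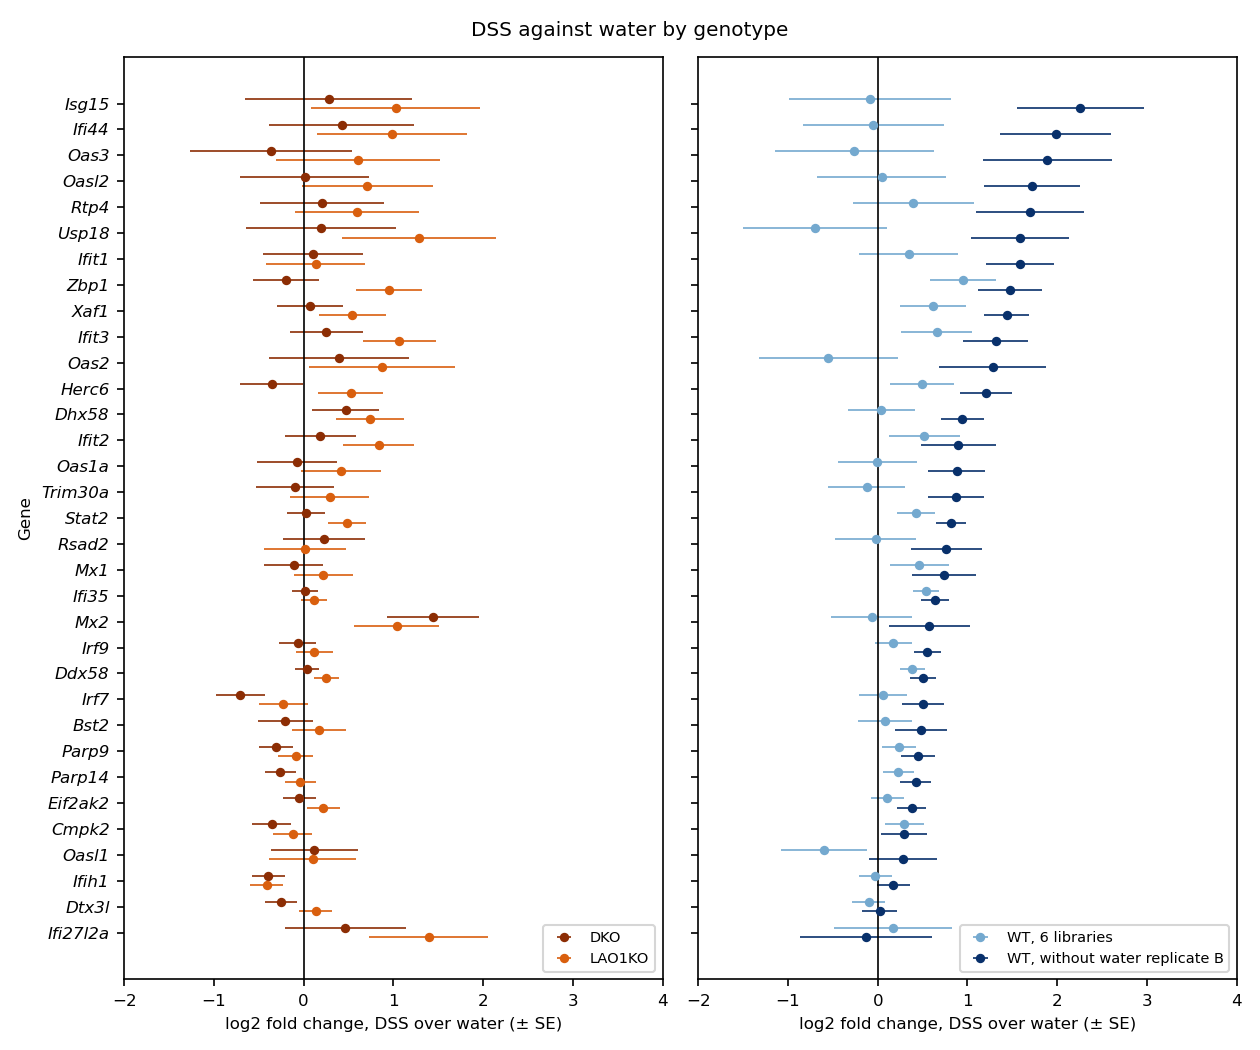
Log2 fold changes of DSS over water ± SE for the 33 genes, in DKO and LAO1KO colon (left) and in WT colon with all 6 libraries and without water replicate B (right). The WT median is 0.11 with that library and 0.81 without it, and the DKO values scatter around a median of 0.015.

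The DSS response of each knockout was set against that of WT by an interaction term, and no member passed for DKO, where 0.0584% of genes did, or for LAO1KO, where 0% did. At an unadjusted p under 0.05 there were 3 members for DKO and 0 for LAO1KO, while DESeq2 called 0 for both (3.32% of genes for DKO and 2.84% for LAO1KO) and voom called 0 for DKO (1.14%) and 2 for LAO1KO (12.5%). The smallest p-values for DKO were those of Ifi35 (-0.52 ± 0.20 SE, adjusted p = 0.237), Mx2 (1.51 ± 0.68 SE, adjusted p = 0.301) and Zbp1 (-1.14 ± 0.52 SE, adjusted p = 0.302), and for LAO1KO those of Ifi35 (-0.42 ± 0.20 SE, adjusted p = 0.322), Mx2 (1.10 ± 0.65 SE, adjusted p = 0.422) and Usp18 (1.98 ± 1.17 SE, adjusted p = 0.425). Medians were -0.24 for DKO and 0.11 for LAO1KO. Leaving out WT water replicate B gave -0.78 for DKO and -0.47 for LAO1KO, again with no member past the threshold and 0% of genes, and the smallest adjusted p for DKO was shared by Xaf1 (-1.36 ± 0.32 SE, adjusted p = 0.188) and Herc6 (-1.55 ± 0.38 SE, adjusted p = 0.188). In that fit 18 members for DKO and 7 for LAO1KO had an unadjusted p under 0.05. Over all single libraries left out, the medians ran from -0.78 to -0.036 for DKO and from -0.47 to 0.35 for LAO1KO. A different DSS response of these genes between genotypes was not shown.

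Under DSS, DKO colon lay below WT colon in fitted level for 33 of 33 members, with a median log2 fold change of -0.66, against 0.0029 over all tested genes. None passed the adjusted threshold, where 0.255% of all genes did. At an unadjusted p under 0.05 there were 8 members, while DESeq2 called 0 (0.791% of genes) and voom 3 (2.37%). The edgeR spread here is pooled over all 18 libraries, WT water replicate B among them. With only the groups compared in the edgeR fit, 23 members had an unadjusted p under 0.05, and 24 did with voom. The share of all genes at that unadjusted p was not counted. Ifit3 was at 8.29 ± 1.94 CPM in DKO and 18.8 ± 5.04 CPM in WT (SD, n = 3 each), with a log2 fold change of -1.18 ± 0.40 SE, adjusted p = 0.397. Irf7 was at 125 ± 12.9 CPM in DKO and 213 ± 24.4 CPM in WT, with a log2 fold change of -0.77 ± 0.27 SE, adjusted p = 0.413. Herc6 came next (-0.87 ± 0.36 SE, adjusted p = 0.475).

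DKO DSS values lay below all WT DSS values without overlap for 19 members (57.6%), against 11.6% of all tested genes. They were Ifit1, Ifit2, Ifit3, Irf7, Irf9, Mx2, Eif2ak2, Cmpk2, Oas1a, Oasl2, Rsad2, Zbp1, Herc6, Rtp4, Bst2, Ifi35, Parp9, Xaf1 and Isg15. The largest log2 differences were those of Isg15 (-1.31 ± 0.92 SE) and Ifit3, and the smallest was that of Ddx58 (-0.099 ± 0.14 SE). With only these 6 libraries in the fit, where 0.372% of genes passed, Irf7 and Xaf1 fell (-0.76 ± 0.13 SE, adjusted p = 0.0473, and -0.84 ± 0.13 SE, adjusted p = 0.0344), both lower in DKO. Leaving out each of these 6 libraries in turn gave medians of -0.80 to -0.44 with 31 to 33 negative members and 0 called. The WT DSS libraries held the larger mitochondrial shares, 26.1 to 44.9%, against 14.3 to 23.6% in DKO DSS libraries, and without mitochondrial mRNAs no member passed either.

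LAO1KO colon under DSS was below WT colon for 32 of 33 members, with a median of -0.50, and Ifi27l2a (0.65 ± 0.66 SE) was the exception, while RLE scaling and DESeq2 gave 31 negative, since Ddx58 lay near 0 (-0.0047 ± 0.14 SE). No member passed, where 0.0849% of all genes did, with 2 at an unadjusted p under 0.05, 0 called by DESeq2 (0.292% of genes) and 1 by voom (5.24%). With only the groups compared in the edgeR fit, 15 members had an unadjusted p under 0.05 and 0 were called. With voom 22 had an unadjusted p under 0.05. The smallest p-values were those of Irf7 (-0.63 ± 0.27 SE, adjusted p = 0.809), Irf9 (-0.43 ± 0.20 SE, adjusted p = 0.823) and Ifit1 (-1.09 ± 0.56 SE, adjusted p = 0.823). Ifit1 was at 20.8 ± 7.18 CPM in LAO1KO and 44.4 ± 13.8 CPM in WT (SD, n = 3 each). Values did not overlap, with LAO1KO lower, for 12 members (36.4%), against 6.44% of all tested genes, and these were Ifit1, Ifit3, Irf7, Irf9, Eif2ak2, Oas1a, Oasl2, Rtp4, Ifi35, Dhx58, Ifi44 and Xaf1. Without WT DSS replicate B the median was -0.28, with 28 of 33 negative. This comparison and that of DKO with WT share the 3 WT DSS libraries, so the shared direction is not independent.

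**Figure D5:**
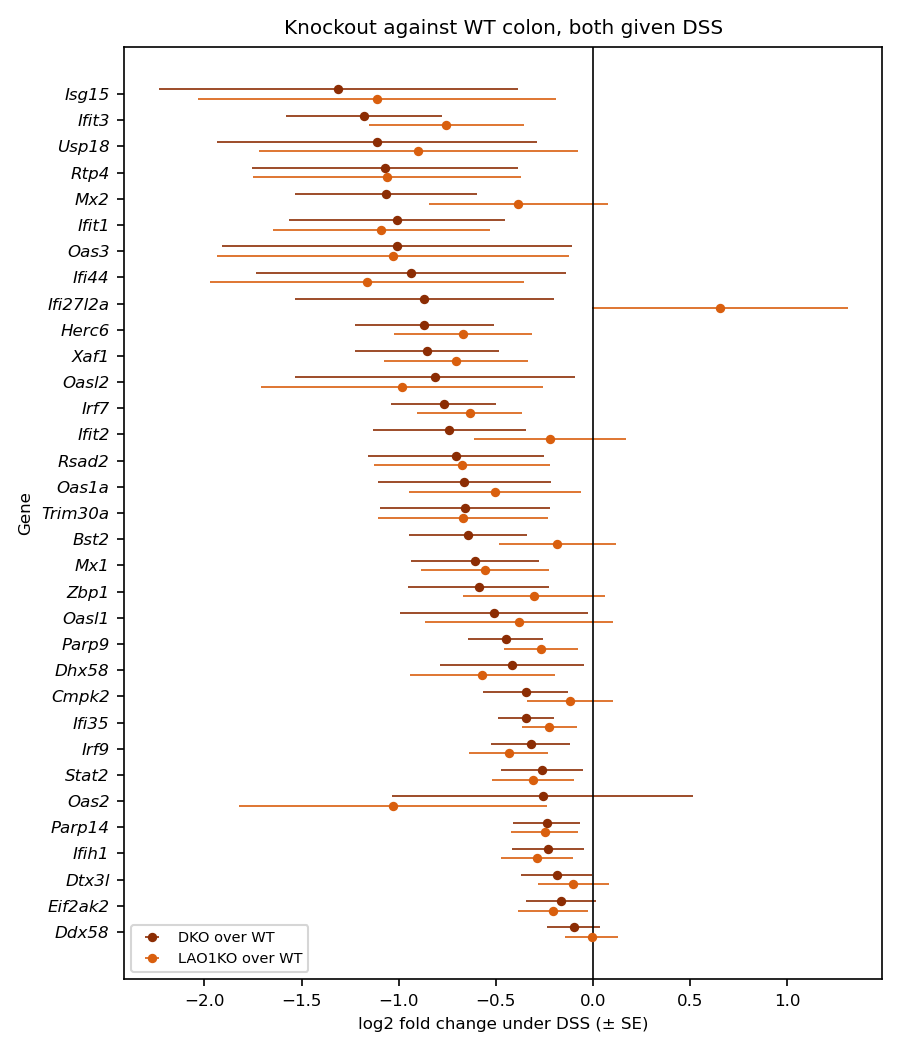
Log2 fold changes ± SE under DSS of DKO over WT and of LAO1KO over WT for the 33 genes, ordered by the DKO value; both use the same 3 WT libraries. All DKO values and all LAO1KO values but that of Ifi27l2a are below 0, with Ddx58 in LAO1KO at 0 within its error and above 0 under some scalings.

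Under water Mx2 fell in DKO against WT colon, at 0.358 ± 0.0137 CPM in DKO and 2.16 ± 1.39 CPM in WT (SD, n = 3 each), with a log2 fold change of -2.57 ± 0.51 SE, adjusted p = 0.0314 in edgeR. It was the single member past the threshold, where 0.621% of all genes were called and 0.249% were called lower. At an unadjusted p under 0.05 there were 4 members. DESeq2 called 1 (4.92% of genes) and voom with library weights 0 (1.06%). Without WT water replicate B its log2 fold change was -1.94 ± 0.47 SE, adjusted p = 0.157, and without DKO water replicate A, B or C the adjusted p was 0.114, 0.0644 or 0.155, so the call needs all 4 of these libraries. DKO water values lay below those of every other library for this gene, and below all WT water values as in 9.86% of all tested genes. The members' median was -0.41, with 25 of 33 negative, and without WT water replicate B it was 0.29, with 6 of 33 negative and 0 called, where 0.259% of genes passed. The sign of the members' median under water turned with that library.

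LAO1KO against WT under water had a median of -0.63, with 27 of 33 negative and none past the threshold, where 0.0531% of all genes passed. There were 10 members at an unadjusted p under 0.05, and DESeq2 called Usp18 and Dhx58 lower (1.92% of genes) while voom called Cmpk2 higher (4.96%). The smallest p-values were those of Dhx58 (-1.27 ± 0.38 SE, adjusted p = 0.192), Usp18 (-2.88 ± 0.87 SE, adjusted p = 0.204) and Mx2 (-1.49 ± 0.47 SE, adjusted p = 0.213). Dhx58 and Mx2 were lower in all LAO1KO than in all WT water libraries, as was so for 8.22% of all tested genes. Without WT water replicate B the median was 0.020, with 14 of 33 negative, 0 members at an unadjusted p under 0.05 and 0 called, where 0.0882% of genes passed.

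DKO against LAO1KO, averaged over both drinking conditions, left no member past the threshold, where 0.239% of all genes passed. The median was 0.11, with 23 of 33 positive, and leaving out 1 library gave 0.025 (without LAO1KO DSS replicate B) to 0.17 (without DKO water replicate B). Of the members, 2 had an unadjusted p under 0.05, and both DESeq2 (0.557% of genes) and voom (1.88%) called 0. Mx2 (-0.88 ± 0.35 SE, adjusted p = 0.645), Ifi27l2a (-1.06 ± 0.47 SE, adjusted p = 0.685) and Stat2 (0.28 ± 0.15 SE, adjusted p = 0.698) had the smallest p-values.

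Ligands of the pathway were at or near the floor. The 11 interferon genes on the list had 26 counts in all over the 18 libraries, of which 22 were of Ifnz, 2 of Ifnl2 and 2 of Ifng. Ifnb1, Ifna1, Ifna2, Ifna4, Ifna5, Ifne, Ifnk and Ifnl3 had 0, and a count of 0 allows up to 3 counts, or 0.0792 to 0.176 CPM depending on the library, for counting error only. WT water replicate B had 0.0319 CPM of all ligands together, below its floor of 0.0956 CPM. Its rank of 12th of 18 therefore says nothing of its ligand level. Receptor chains were well above the floor, with means over the 18 libraries of 43.1 CPM for Ifnar1 (range 38.9 to 50.1), 8.79 CPM for Ifnar2 (6.28 to 10.7) and 18.2 CPM for the type III chain Ifnlr1 (14.5 to 23.6).

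Of 92 other tested genes of interferon production, signalling and response, 6 rose and 7 fell under DSS on average, shares that do not stand above the 6.72% higher and 9.18% lower of all genes. The 5 with the smallest p were Ifitm3 (0.59), a block to viral entry, Traf6 (-0.28), an adaptor ligase, Parp12 (-0.46), Ifitm2 (0.41) and the chemokine gene Cxcl10 (1.20), in log2 fold change with adjusted p of 0.00231 to 0.0091. In WT colon 5 rose and 2 fell, where 6.29% of all genes were higher and 6.59% lower, among them Mavs (-0.57), the adaptor of Ddx58 and Ifih1, Trim34a (0.66), Ptpn11 (-0.52), Oas1c (1.01) and Nmi (0.67), the partner of Ifi35. Isg20, an interferon-induced exonuclease, fell in DKO against WT colon under water (-1.15, adjusted p = 0.00564) and in DKO against LAO1KO colon (-0.85, adjusted p = 0.00415). No gene of this list passed in the other comparisons. The largest group of the list, 53 tested interferon-induced genes, had 5 higher and 2 lower on average and 4 higher in WT colon with all libraries. Without WT water replicate B it had 10 higher and 2 lower on average, where 12.4% of all genes passed, and 8 higher in WT colon, where 4.03% passed. The 55 listed genes of this group summed highest in that library (2118 CPM), so its removal raises their DSS differences by construction too.

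Set beside the members in WT colon under DSS, 10 of 17 genes of MHC class I presentation and the immunoproteasome and 2 of 16 interferon-inducible GTPases rose, where 6.29% of all genes were called higher. Without WT water replicate B, 2 of the 17 and 0 of the 16 passed, beside 8 of the 33 members and 4.03% of all genes. That library had the highest sum of the members (1538 CPM) and the lowest sum of the 17 (2641 CPM). Its removal therefore moves the DSS differences of these 2 lists in opposite directions by construction, so the counts do not compare the lists. The difference between these lists was not tested.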

How the data were processed

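Gene-level read counts of 18 colon libraries were used as the authors deposited them. Per the submitters' processing notes, the build was GRCm38 (mm10) and the tools named include HISAT2 2.1.0 and StringTie 2.1.3b, beside Trimmomatic 0.38 and FastQC 0.11.7, with no order given. Libraries were stranded and poly(A)-selected per the labels' protocols. How the counting treated strand, overlapping genes and multiply aligned reads is not given in the sources used here, so near-identical copies and overlapping genes are uncertain.

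Differences were tested with edgeR 4.0.16 in R 4.3.3 (TMM scaling, filterByExpr, quasi-likelihood test with robust dispersion, 1 mean per group over all 18 libraries), with Benjamini-Hochberg adjustment over all 18848 tested genes and a threshold of 0.05. Standard errors (SE) were recovered as the size of the log2 change over the root of its F statistic. Groups are those of the labels, with 3 labelled biological replicates each. The p-values set a difference against variation within groups, pooled over all 18 libraries and moderated across genes. Depth was 26003174 to 36553193 counts per library. A floor of 3 counts covers counting error only. The test was run on simulated data with planted changes and no library that stands apart. That check does not cover a library such as WT water replicate B.

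Alternatives were DESeq2 1.42.0, voom with library weights (limma 3.58.1), RLE scaling, no filter, fits on the groups compared, a replicate block, removal of mitochondrial mRNAs, and each library left out. Both libraries that stand apart were left out together, and the block was fitted in 6 libraries, as alternatives added after seeing the data. Letters A to C were checked for pairing by correlating deviations from group means. Different letters were not compared and the labels give no pairing, so this check cannot show that libraries are paired. Same-letter correlations were 0.234 to 0.329 between WT DSS and water and 0.130 to 0.364 between DKO DSS and water. They were -0.372 to 0.112 in LAO1KO, and each comparison of a knockout with WT had a correlation below 0 (DKO against LAO1KO was not checked).

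All members are named. Values per library are given for members that passed a test and for the 6 with the highest mean CPM, with others as stated. Where none passed, the 3 with the smallest p are named. The members, lists and tests were chosen with earlier results of these data known. Exon lengths are from GENCODE vM21 (GRCm38), and promoter windows from RefSeq (GRCm38.p6).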

Additional observations from a re-analysis of the deposited data

How the results depend on the processing

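Counts of members called depended on the method and on WT water replicate B. For DSS against water on average, DESeq2 called 4, voom with library weights 20 and the fit without both libraries that stand apart 18, and leaving out single libraries gave 0 to 10. In WT, DESeq2 called 2, voom 11, the fit without both libraries 14 and the 6 libraries with a replicate block 2, and leaving out single libraries gave 0 to 8. In LAO1KO, voom called 18 and the fit without both libraries 1. In DKO, voom called 1 and the 6 libraries with a replicate block 2. For LAO1KO against WT, DESeq2 called 2 and voom 1 under water, and voom 1 under DSS. For DKO against WT under water, voom, the fit on the groups compared and the fit without both libraries called 0, and leaving out single libraries gave 0 to 1. For DKO against WT under DSS, voom called 3, the fit on the groups compared 2 and the fit without both libraries 1. For the LAO1KO interaction voom called 2. The causes were not tested, beyond the raised differences that follow from leaving out the highest water library. The replicate block over all 18 libraries called 1 member in WT and 1 for DKO against WT under water, and changed no call. Ifi35 and Mx2, the members called with all libraries, kept their direction. Isg15, called higher under DSS in WT by voom (1.77) and without both libraries (2.26), had -0.086 in edgeR with all libraries, and Oas1a, called without both (0.88), had -0.0056. Low counts of Mx2 (10 to 13 in DKO water) limit its precision.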
